A study of Mus musculus with 4 samples.

Results

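The MYC network transcription factors were followed in bulk RNA sequencing of 4 J558 allografts. The members were chosen by name, as the 10 genes Myc, Mycn, Mycl, Max, Mxd1, Mxd3, Mxd4, Mxi1, Mnt and Mga, and all 10 were found among the 24421 genes of the count tables. J558 is a mouse plasmacytoma line, labelled as a B lymphocyte, and an allograft is a tumour that grew from these cells after they were placed under the skin of another mouse. All hosts were female BALB/c mice with no engineered allele in the labels, and every tumour was taken on day 6 of dosing by mouth. The control group (Vehicle-1 and Vehicle-2) received 0.5% methylcellulose, and the treated group (TAK-931-1 and TAK-931-2) received TAK-931, an inhibitor of the replication kinase CDC7, at 60 mg/kg once daily. The series asks how the transcriptome of these allografts differs with TAK-931. The age of the mice was not given in the labels. A whole tumour holds J558 cells and host cells together, so fewer cells of a type and less RNA per cell cannot be told apart.

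MYC, MYCN and MYCL are basic helix-loop-helix leucine zipper proteins that bind DNA as pairs with MAX and raise genes of ribosome synthesis, metabolism and the cell cycle. MAX also pairs with the MXD proteins (MXD1, MXI1, MXD3 and MXD4), with MNT and with MGA, and these pairs occupy the same E-box letters, CACGTG, and lower the genes there. The balance of the 2 kinds of pair is known to follow growth and differentiation, with MYC high in dividing cells and MXD1 high in maturing ones. In mouse plasmacytomas Myc is typically driven by a chromosome translocation that places it beside an immunoglobulin locus. Sequencing of RNA reads only the transcript levels of these genes, and neither protein levels nor binding to DNA.

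Since the E-box is what the pairs have in common, it was looked for in the promoter windows of RefSeq (GRCm38.p6), each running from 250 bases before a gene's start to 50 bases after it. The letters CACGTG read the same on both strands and were the only motif searched. Of the 9 members with a window (all but Myc), 3 (Max, Mnt and Mxd4) held it, which is 33.3%. It was found in 18 of 54 matched genes of a list of 60 known MYC targets (33.3%), in 11.5% of the 10348 matched genes among those tested, and in 8.09% of all 27025 genes with a window. The median GC content of the windows was 64% for the members, 60.7% for the MYC targets, 60.3% for the tested genes and 52.7% for all genes. The matches describe letters only. The stretches of the 3 members are shown because these are genes of the network that carry the network's own binding letters. Beside them stand those of 3 MYC targets, Apex1 (a DNA repair endonuclease), Prmt3 (an arginine methyltransferase that acts on a ribosomal protein) and Imp4 (a ribosomal RNA processing factor), which had the lowest fitted values among the targets with the letters before the start. Each is written 5′ to 3′ on the gene's own strand, with the E-box in capitals.
Max, minus strand, chr12:76962246-76962273: accccggcgcggtgagcccggtCACGTG
Mnt, plus strand, chr11:74830779-74830828: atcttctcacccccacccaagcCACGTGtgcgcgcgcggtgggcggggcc
Mxd4, minus strand, chr5:34187902-34187951: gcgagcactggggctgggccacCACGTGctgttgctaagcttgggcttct
Apex1, plus strand, chr14:50924903-50924948: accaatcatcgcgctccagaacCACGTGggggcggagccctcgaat
Prmt3, plus strand, chr7:49778323-49778357: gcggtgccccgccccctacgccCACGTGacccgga
Imp4, plus strand, chr1:34439686-34439735: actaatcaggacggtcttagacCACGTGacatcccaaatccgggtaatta
In Max the letters spanned the start site, and in Mnt and Mxd4 they began at positions -123 and -219 from it.

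The libraries ranged from 16487902 to 19589339 counts in all and from 15216 to 16270 genes detected. The vehicle-treated libraries were alike (Pearson's r of 0.977 across 13669 genes, which are not independent replicates), and the treated libraries were less so (r = 0.865). TAK-931-1 stood apart from the vehicle-treated libraries with r of 0.806 and 0.791, and TAK-931-2 lay nearer to them with r of 0.950 and 0.939. Summed over 10 plasmacytoma markers (Trap1a, Jchain, Sdc1, Prdm1, Xbp1, Irf4, Tnfrsf17, Mzb1, Derl3 and Pou2af1), TAK-931-1 held 6039 CPM (a gene's counts scaled to a fixed total, with TMM library sizes) against between 15110 and 17840 CPM in the other 3 libraries. All 10 markers were below both vehicle values in TAK-931-1, where 47.4% of all genes were. In TAK-931-2, Sdc1, Xbp1, Mzb1 and Pou2af1 were below both, and the other 6 were above both (44.4% and 42.3% of all genes). The summed markers of macrophages, T cells and fibroblasts were higher in both treated tumours. The 6 macrophage markers (Adgre1, Csf1r, Cd68, Mrc1, C1qa and C1qb) summed to 367, 308, 4919 and 981 CPM in Vehicle-1, Vehicle-2, TAK-931-1 and TAK-931-2, and all 6 were higher in both treated libraries than in either vehicle-treated one, as were 30.0% of all genes. The 6 T cell markers (Cd3d, Cd3e, Cd3g, Cd8a, Cd4 and Trat1) summed to between 5.28 and 8.72 CPM in the vehicle-treated libraries, where Trat1 was at 0, and to 799 and 46.5 CPM in the treated ones. The 4 fibroblast markers (Col1a1, Col1a2, Pdgfra and Dcn) summed to between 1352 and 1502 CPM under vehicle and to 11130 and 3823 CPM under TAK-931, although Pdgfra was at 11.96 CPM in TAK-931-2, between its vehicle values of 11.6 and 15.8 CPM. In the same order of libraries, 5 dendritic cell markers (Flt3, Zbtb46, Xcr1, Clec9a and Itgax) summed to 25.3, 20.7, 280.4 and 55.3 CPM, and 3 endothelial markers (Pecam1, Cdh5 and Kdr) to 207.5, 214, 712 and 215 CPM. Flt3, at 5.37 CPM against 7.06 and 6.77 CPM, and Pecam1, at 107 CPM against 126 and 126 CPM, were below both vehicle values in TAK-931-2. The 4 neutrophil markers (S100a8, S100a9, Csf3r and Cxcr2) summed to 6.29, 6.83, 128 and 15.2 CPM, and S100a8 and S100a9 were below both vehicle values in TAK-931-2. The 3 muscle markers (Acta1, Ckm and Myh4) parted the treated tumours, with sums of 64.8, 68.2, 421 and 0.875 CPM, and all 3 were below both vehicle values in TAK-931-2. Cdc7, which encodes the drug's target, was at 23.0, 21.5, 21.3 and 21.2 CPM. The part of this mixture of cells in the results on the network was not tested.

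Of the 10 members, 9 passed the filter on low counts and Mycn did not. With edgeR's quasi-likelihood test, 0 of the 9 passed an adjusted p of 0.05, and 0.0% of the 13669 genes tested did so, whereas DESeq2 called 1 member (Mxd1), against 10.3% of all genes. At an unadjusted p of 0.05 in edgeR, 1 member (Mxd1) was higher with TAK-931, against 11.6% of all genes, and 1 member (Mxi1) was lower, against 6.55% of all genes. The values of the 2 groups did not overlap for 4 members that were higher (Mxd1, Mycl, Max and Mxd4), against 30.0% of all genes, nor for 4 that were lower (Myc, Mxi1, Mnt and Mxd3), against 32.7% of all genes. The median fitted log2 fold change was -0.12 over the 9 members and 0.02 over all tested genes.

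**Figure D1:**
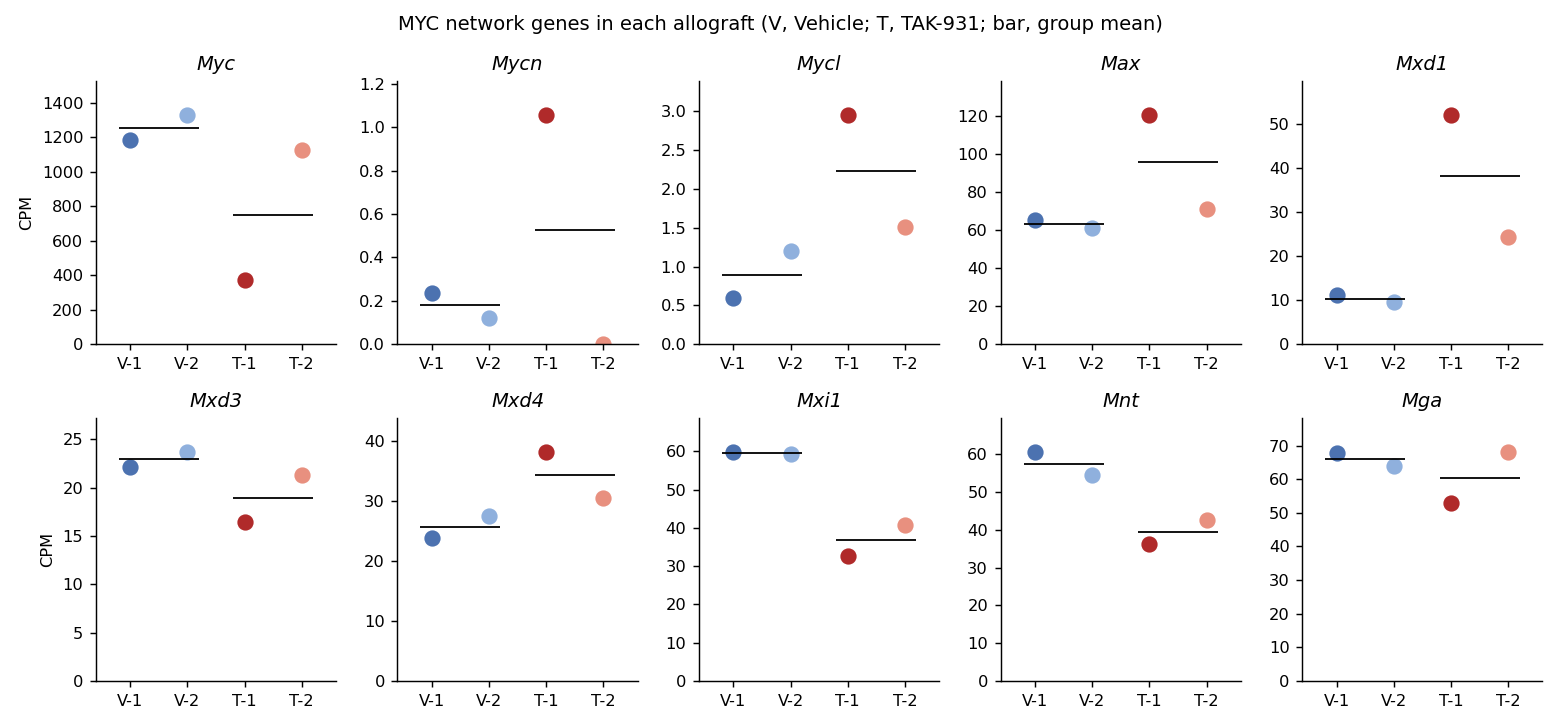
Level of each of the 10 members, in TMM-scaled CPM (vertical axis, linear and starting at 0), in each of the 4 allografts (V, Vehicle; T, TAK-931), with a bar at the mean of each group. Myc was at 370 CPM in TAK-931-1 and between 1129 and 1327 CPM in the other 3, and Mxd1 was higher in both treated allografts than in either vehicle-treated one.

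Myc (chr15:61985341-61990361, plus strand, mm10) encodes the oncogenic activator of the network. It was at 1185 CPM in Vehicle-1, 1327 CPM in Vehicle-2, 370 CPM in TAK-931-1 and, in TAK-931-2, 1129 CPM. Both treated values lay below both vehicle values, but TAK-931-2 was close to the vehicle range while TAK-931-1 was far under it. Relative to the vehicle mean of 1256 ± 100.6 CPM (SD, n = 2), Myc stood at 0.295 in the first treated tumour and at 0.899 in the second. The fitted log2 fold change was -0.74 (SE 0.58, edgeR adjusted p = 0.471), within the spread between the treated tumours. The value rested on 1 library: without TAK-931-2 it was -1.78 (adjusted p = 0.000253, in a fit that called 58.1% of all genes), and without TAK-931-1 it was -0.16. In TAK-931-1, 4.33% of all tested genes were as far below the vehicle mean as Myc or farther, and in TAK-931-2 this share was 40.2%.

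The lower level of Myc in TAK-931-1 went with a lower level of the plasmacytoma marker Trap1a, which encodes a known antigen of mouse tumour lines. Trap1a was at 1127, 1095, 356 and 1235 CPM in the same order of libraries. Per 100 CPM of Trap1a, Myc was at 105, 121, 104 and 91.4 CPM, so that TAK-931-1 lay beside Vehicle-1 on this scale and TAK-931-2 was the lowest. Per 100 CPM of the 10 summed plasmacytoma markers, it was at 7.84, 8.64, 6.13 and 6.33 CPM, with both treated tumours below both vehicle-treated ones. Without Jchain, left out after its values were seen, it was at 11.8, 13.7, 12.8 and 11.6 CPM, and the treated values fell inside or just under the vehicle range. The place of the treated tumours on such a scale thus depended on the markers summed. These ratios are descriptions, and whether the markers differ per cell between groups was not tested.

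Among 6351 genes with a mean log2 CPM over 5, those whose log2 levels followed Myc most closely over the 4 libraries were Pla2g5 (a secreted phospholipase; root mean square difference after centring 0.0443), Mcph1 (a chromosome condensation and DNA damage factor; 0.0514) and Pet2 (0.0517). The likeness rests on 4 libraries that include TAK-931-1, and 37 genes lay within 0.1 of Myc. Pla2g5 was at 204, 213, 58.9 and 184 CPM. Pvt1, the long noncoding RNA gene next to Myc, was at 21.1, 19.1, 14.7 and 19.3 CPM, with groups that overlapped (log2 fold change -0.24, SE 0.31, edgeR adjusted p = 0.6499).

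Of the other genes around Myc on its chromosome, Fam84b, Fam49b and Asap1 were higher in both treated tumours than in either vehicle-treated one, at 0.356, 1.32, 9.54 and 3.27 CPM for Fam84b, with a vehicle mean of 96.8 ± 4.57 CPM (SD, n = 2) against 245.9 and 116 CPM for Fam49b, and with a vehicle mean of 19.3 ± 0.991 CPM (SD, n = 2) against a treated mean of 37.5 ± 17.7 CPM (SD, n = 2) for Asap1. Trib1, a pseudokinase gene, was at 186, 185, 100.7 and 234 CPM, so that only TAK-931-1 was below vehicle. Gsdmc had 0 counts in all 4 libraries, which allows up to 0.182 CPM. Of the 5 neighbours tested, 0 passed the adjusted p and 1 (Fam84b, higher) passed the unadjusted one, which 11.6% of all genes did in this direction. The 3 that were higher without overlap stand against 30.0% of all genes.

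Mycn and Mycl encode the other MYC activators, which are best known in neural and lung tumours. Mycn (chr12:12936093-12941836, minus strand) had 4, 2, 20 and 0 counts in Vehicle-1, Vehicle-2, TAK-931-1 and TAK-931-2, and was too low for the test. Only TAK-931-1 and Vehicle-1 were above the 3 counts that a count of 0 allows, and the groups overlapped. Mycl (chr4:122995931-123002480, plus strand) had 10, 20, 56 and 26 counts, or 0.593, 1.20, 2.95 and 1.52 CPM. Both treated values were higher than both vehicle values, and the difference did not pass the test (log2 fold change 1.31, SE 0.78, edgeR adjusted p = 0.368). The fitted value was 0.75 without TAK-931-1, 1.69 without TAK-931-2, 0.89 without Vehicle-1 and 1.87 without Vehicle-2.

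Max (chr12:76937269-76962248, minus strand) encodes the partner that both kinds of pair need. It was at 65.5 and 61.1 CPM in the vehicle-treated tumours, at 121 CPM in TAK-931-1 and, in TAK-931-2, at 71.2 CPM. The treated values were the higher ones, at 1.91 and 1.13 of the vehicle mean. The fitted log2 fold change was 0.60 (SE 0.32, edgeR adjusted p = 0.342). Without TAK-931-2 it was 0.91, and without TAK-931-1 it was 0.17.

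Mxd1 (chr6:86647045-86669159, minus strand), the MXD gene known for its rise in maturing blood cells, had the largest fitted value of the 9 tested members. It was at 11.2 and 9.59 CPM under vehicle and at 51.9 and 24.3 CPM under TAK-931. The groups were well apart, with the treated tumours at 5.01 and 2.35 of the vehicle mean. The fitted log2 fold change was 1.88 (SE 0.46, edgeR adjusted p = 0.275), which missed the threshold. DESeq2 gave 1.93 with an adjusted p of 0.0074, and over 12 alternatives the value lay between 1.23 and 2.30. Leaving out either treated library brought the adjusted p under the threshold, at 0.00426 without TAK-931-1 and 0.000453 without TAK-931-2, in fits that called 28.7% and 58.1% of all genes. In TAK-931-1, 13.8% of all tested genes were as far above the vehicle mean as Mxd1 or farther, and 9.42% in TAK-931-2. The macrophage and T cell marker sums given above had the same order over the treated libraries, and macrophages and lymphocytes are known to express Mxd1. Their part in its values was not tested.

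Mxi1 (chr19:53310506-53375810, plus strand), also called MXD2, was at 59.8 and 59.3 CPM under vehicle and at 32.8 and 40.7 CPM under TAK-931. Unlike Mxd1, it was lower in both treated tumours, at 0.550 and 0.683 of the vehicle mean. The fitted log2 fold change was -0.70 (SE 0.23, edgeR adjusted p = 0.275). It lay between -0.88 (without TAK-931-2) and -0.55 (without TAK-931-1) over 12 alternatives.

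Mxd4 (chr5:34176580-34187710, minus strand) was at 23.9, 27.5, 38.1 and 30.5 CPM, and both treated tumours were above both vehicle-treated ones (log2 fold change 0.42, SE 0.26, edgeR adjusted p = 0.385). The fitted value was 0.55 without TAK-931-2 and 0.24 without TAK-931-1. Mxd3 (chr13:55325168-55329730, minus strand), an MXD gene linked to dividing cells, was at 22.2, 23.7, 16.5 and 21.4 CPM. Its log2 fold change was -0.28 (SE 0.29, edgeR adjusted p = 0.584), with -0.11 without TAK-931-1 and -0.50 without TAK-931-2. The treated values of Mxd3 were the lower ones, but they overlapped with vehicle when libraries were scaled by their totals alone. Mxd3 shares 105 exon bases with Prelid1 on the other strand, and strand use in counting was not stated, so its count may hold reads of that gene.

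Mnt (chr11:74830924-74845725, plus strand), the antagonist that most cells express at all times, was at 60.6 and 54.4 CPM under vehicle and at 36.1 and 42.7 CPM under TAK-931. The treated tumours were the lower ones, at 0.628 and 0.743 of the vehicle mean, with a log2 fold change of -0.54 (SE 0.22, edgeR adjusted p = 0.281). Leaving out a treated library gave -0.43 (without TAK-931-1) and -0.69 (without TAK-931-2). Mga (chr2:119897228-119969581, plus strand), a large antagonist that works within a Polycomb complex, was at 67.7, 64.1, 52.9 and 68.1 CPM. Its groups overlapped, since TAK-931-2 was the highest of all. Its log2 fold change of -0.12 (SE 0.23, edgeR adjusted p = 0.763) turned to 0.044 without TAK-931-1 and was -0.34 without TAK-931-2.

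**Figure D2:**
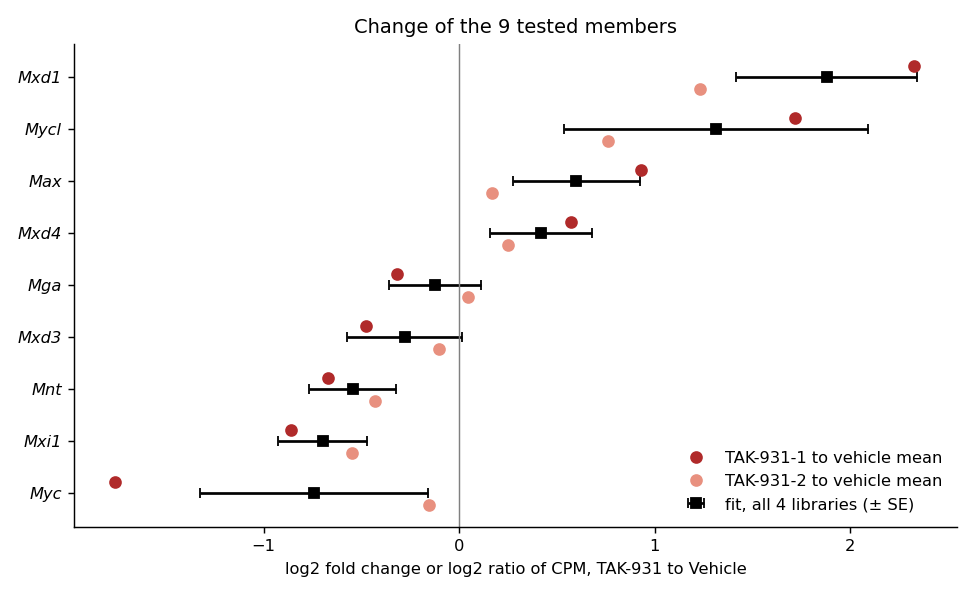
Change of each of the 9 tested members with TAK-931 on the log2 scale (horizontal axis), as the fitted log2 fold change over all 4 libraries (squares, bars ± 1 SE) and as the log2 ratio of each treated library's CPM to the vehicle mean (circles). Except for Mga, both treated libraries lay on the same side of 0, and TAK-931-1 lay farther from it than TAK-931-2.

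To compare the members with each other, CPM was divided by the exon length of each gene. Myc was the highest member in all 4 libraries, at 494, 553, 154 and 471 CPM per kb, followed by Max at 32.7, 30.5, 60.1 and 35.5 CPM per kb. Under vehicle the order then ran Mxd4 (21.8 ± 2.17 CPM per kb, SD, n = 2), Mxd3 (17.7 ± 0.816), Mnt (12.5 ± 0.952), Mxi1 (10.6 ± 0.0692), Mga (4.73 ± 0.185), Mxd1 (2.23 ± 0.236), Mycl (0.245 ± 0.117) and Mycn (0.0688 ± 0.0320). Neighbours in this order did not overlap in the vehicle-treated libraries, although Mnt and Mxi1 came close, at 11.9 against 10.7 CPM per kb for their nearest values. Mxd1 was at rank 8 in both vehicle-treated libraries, at rank 5 in TAK-931-1 and at rank 7 in TAK-931-2. Among all genes, Myc was at ranks 157, 139, 490 and 145 per length.

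Myc made up 83.0% and 84.5% of the summed level per length of the 10 members in the vehicle-treated tumours, 53.3% in TAK-931-1 and 81.8% in TAK-931-2. Max made up 5.49%, 4.65%, 20.8% and 6.17%, and Mxd1 made up 0.402%, 0.314%, 3.85% and 0.907%. TAK-931-1 thus differed from the other 3 tumours in the make-up of the network far more than these differed among themselves.

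**Figure D3:**
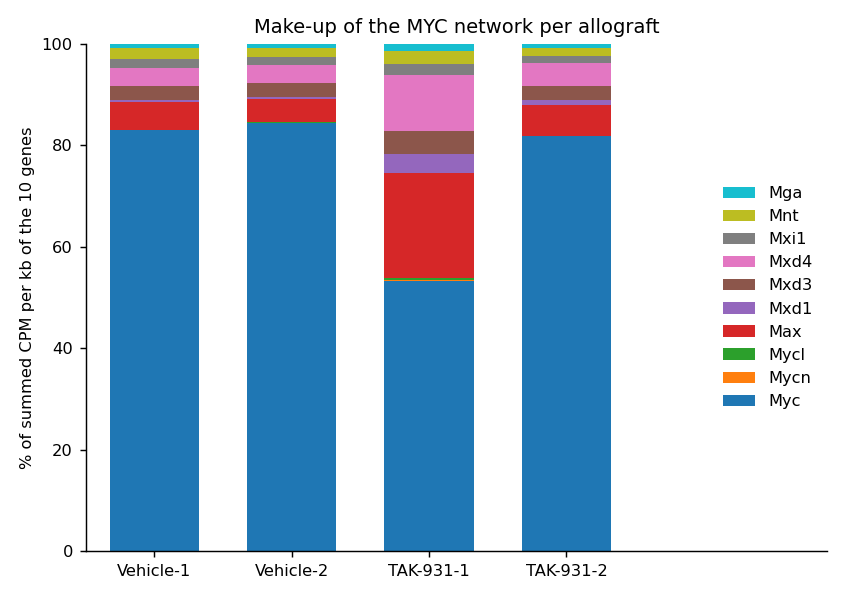
Share of each of the 10 members in their summed CPM per kb (vertical axis, in %, stacked from Myc at the bottom to Mga at the top) in each allograft. Myc took between 81.8% and 84.5% in 3 allografts and 53.3% in TAK-931-1, where Max took 20.8%.

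The ratio of Myc to its 6 summed antagonists per length was 7.21 and 7.83 under vehicle and 2.10 and 6.82 under TAK-931. Both treated values were lower, with a mean log2 difference of -0.99 (exact permutation test, two-sided, p = 0.3333, the smallest that 2 against 2 libraries can give). Without TAK-931-1 the difference was -0.14, and without TAK-931-2 it was -1.84. The ratio of Myc to Max was 15.1, 18.2, 2.57 and 13.3, also lower in both treated tumours. Within the MXD genes, the share of Mxd1 was 0.0475 and 0.0380 under vehicle and 0.1797 and 0.0953 under TAK-931, so that it was higher in both treated tumours. Each of these ratios had the same exact p of 0.3333.

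Set against Trap1a, the members parted from Myc. Max was at 5.81, 5.58, 33.9 and 5.76 CPM per 100 CPM of Trap1a, high in TAK-931-1 and inside the vehicle range in TAK-931-2. Mxd1 was at 0.989, 0.876, 14.6 and 1.97 on this scale and remained higher in both treated tumours. Mxi1 was at 5.31, 5.41, 9.22 and 3.29, and Mnt was at 5.38, 4.97, 10.2 and 3.46, each above vehicle in TAK-931-1 and below it in TAK-931-2. The summed host markers were also highest in TAK-931-1, and their part in these values was not tested.

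**Figure D4:**
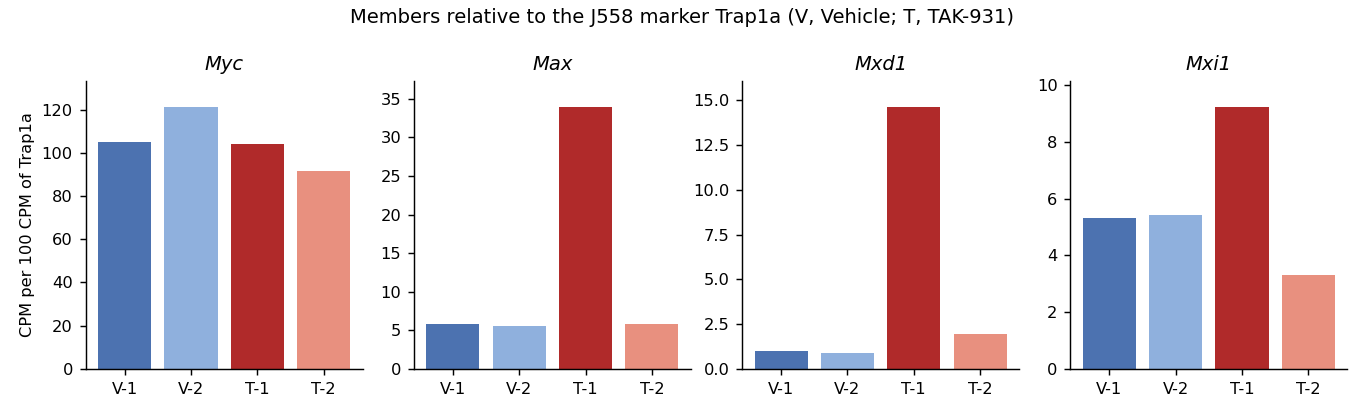
Level of Myc, Max, Mxd1 and Mxi1 per 100 CPM of the plasmacytoma marker Trap1a (vertical axes, linear from 0) in each allograft (V, Vehicle; T, TAK-931). Myc stayed between 91.4 and 121 in all 4, whereas Max reached 33.9 and Mxd1 reached 14.6 in TAK-931-1.

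The genes that MYC is known to raise, on a list chosen with earlier results of these data known, were lower nearly throughout. Of 60 such genes, chosen by hand for ribosome synthesis, nucleotide and polyamine supply, folding and growth, 56 were lower in both treated tumours than in either vehicle-treated one (32.7% of all genes were), and 1 (Hk2) was higher. Here 0 passed the adjusted p, 11 were lower at the unadjusted p (6.55% of all genes were) and 0 were higher. The median log2 fold change was -0.81, against 0.02 over all tested genes. TAK-931-1 alone was below both vehicle values for 59 of the 60 genes (47.4% of all genes were below both there), with a median log2 ratio to vehicle of -1.38, and TAK-931-2 alone for 56 (44.4% of all genes), with a median of -0.43, in the tumour where Myc was at 0.899 of the vehicle mean. Over all 13669 genes these medians were -0.02 and -0.01. Medians per tumour, here and for the lists that follow, are of log2 CPM with a prior count of 2, less the vehicle mean on that scale.

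Nop58, a core protein of the particles that methylate ribosomal RNA, had the lowest fitted value of the targets. It was at 656 and 628 CPM under vehicle and at 141 and 315 CPM under TAK-931 (log2 fold change -1.50, SE 0.46, edgeR adjusted p = 0.275). Apex1, whose E-box at position -24 is printed above, was at 105, 114, 15.9 and 61.9 CPM, with a log2 fold change of -1.49 (SE 0.69, edgeR adjusted p = 0.303). The letters also stood at positions 0 and 21 of Apex1. Prmt3 and Imp4, named after their values were seen, were at 69.1, 66.3, 19.8 and 32.8 CPM and at 189, 201, 47.5 and 131 CPM. Apex1, Prmt3 and Imp4 were picked for the lowest fitted values among the targets with the letters before the start. That they were lower with TAK-931 thus follows from the choice. TAK-931-1 was the lower of the treated pair for each.

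The 2 targets with the highest fitted values were Hk2 and Gnl3. Hk2, a hexokinase of glycolysis that other factors such as HIF1 also raise, was at 41.4, 32.3, 50.7 and 43.3 CPM (log2 fold change 0.35, SE 0.25, edgeR adjusted p = 0.431). The part of such factors was not tested. Gnl3, which encodes nucleostemin, was at 330, 316, 140 and 384 CPM, so that it was low in TAK-931-1 only. Other targets, named here after their values were seen, included Odc1, the first enzyme of polyamine synthesis, at 273, 256, 108 and 168 CPM, Npm1, the nucleolar chaperone nucleophosmin, at 2013, 1956, 955 and 1311 CPM, and Cdk4, a kinase of entry into the cell cycle, at 416, 420.1, 228 and 327 CPM. Each of these 3 was lower in both treated tumours. The 10 plasmacytoma markers were all below vehicle in TAK-931-1 too, whereas in TAK-931-2 6 of them were above both vehicle values, among them Irf4 at 1671 CPM against 737 and 762 CPM, and 4 were below, among them Pou2af1 at 3999 CPM against 5222 and 4875 CPM. Their sum without Jchain was 10030 and 9691 CPM under vehicle, 2902 CPM in TAK-931-1 and, in TAK-931-2, 9711 CPM. Their part in the values of the targets was not tested.

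**Figure D5:**
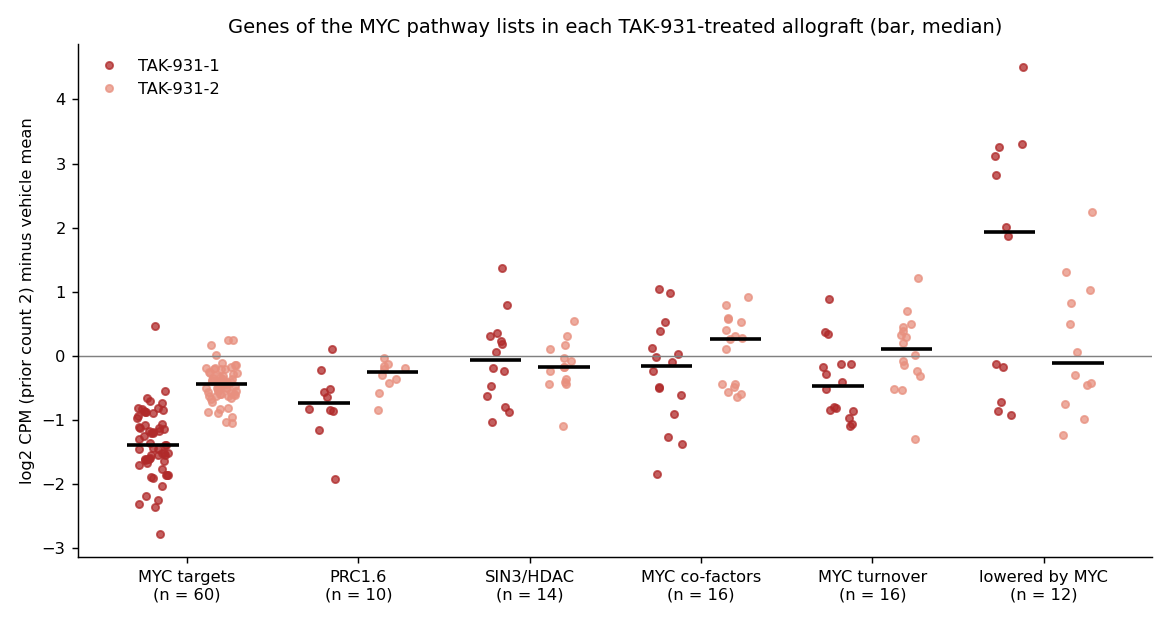
Log2 CPM with a prior count of 2, less the vehicle mean on that scale (vertical axis), for each tested gene of 6 lists of the MYC pathway, in TAK-931-1 (dark) and TAK-931-2 (light), with a bar at the median. The MYC targets had medians of -1.38 and -0.43, and the genes that MYC is known to lower had medians of 1.94 and -0.12.

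Of 12 tested genes that MYC is known to lower, 4 were higher and 1 lower at the unadjusted p, against 11.6% and 6.55% of all genes, and 0 passed the adjusted p. Without overlap 4 were higher and 3 lower, close to the shares of 30.0% and 32.7% over all genes. Their median log2 fold change was 1.33. Split by tumour, the median log2 ratio to vehicle was 1.94 for TAK-931-1 but -0.12 for TAK-931-2. Id2, an inhibitor of helix-loop-helix factors, was at 12.6, 6.17, 202 and 42.1 CPM (log2 fold change 3.70, SE 0.93, edgeR adjusted p = 0.275). Klf4, a differentiation factor, was at 0.356, 0.839, 6.53 and 0.584 CPM, high in TAK-931-1 only. Gadd45b, a stress response gene, was lower in both treated tumours, at 177 and 174 CPM against 92.1 and 104.5 CPM, and so was Cdkn2b, a CDK inhibitor, at 10.97 and 8.63 CPM against 5.85 and 7.06 CPM. Id2 and Klf4 are also expressed by lymphoid, myeloid and stromal cells, whose markers were highest in TAK-931-1. The part of these cells in the values was not tested.

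MXD and MNT proteins act through the SIN3 and histone deacetylase co-repressor. Of its 14 genes, 4 were higher and 6 lower without overlap, against 30.0% and 32.7% of all genes. At the unadjusted p 1 was lower, against 6.55%, and 0 passed the adjusted p, with a median log2 fold change of -0.10 (and median log2 ratios of -0.06 and -0.18 in the treated tumours). Sap30, a SIN3 subunit, was at 47.0 and 50.1 CPM under vehicle and at 23.7 and 22.8 CPM under TAK-931. The treated tumours were alike for this gene, and its log2 fold change was -1.06 (SE 0.22, edgeR adjusted p = 0.275). Hdac2, a deacetylase, was also lower in both, at 128, 117, 67.0 and 92.5 CPM. Sap18 (5.81, 5.22, 14.4 and 8.05 CPM) and Arid4a (35.7, 28.4, 55.4 and 39.5 CPM), a pair of further SIN3-associated proteins, were higher in both.

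MGA works in the Polycomb complex PRC1.6, and the 10 other genes of this complex all had a fitted value below 0, with a median log2 fold change of -0.45. As ratios to vehicle the medians were -0.74 for TAK-931-1 and -0.25 for TAK-931-2. Without overlap 8 were lower and 0 higher, against 32.7% and 30.0% of all genes. At the unadjusted p 2 were lower, against 6.55%, and 0 passed the adjusted p. Pcgf6, the subunit that sets this complex apart, was at 52.5 and 51.1 CPM under vehicle and at 13.5 and 28.8 CPM under TAK-931 (log2 fold change -1.29, SE 0.43, edgeR adjusted p = 0.275). E2f6, its other DNA-binding factor, was at 56.7, 59.6, 26.0 and 47.4 CPM. Both were lower in the treated tumours and lowest in TAK-931-1. The highest fitted values were those of Rnf2, the catalytic ubiquitin ligase, at 38.3, 34.2, 39.0 and 31.5 CPM, whose groups overlapped, and of Cbx3, a chromatin reader, at 107, 98.4, 88.4 and 92.0 CPM.

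Of 16 genes for co-activators and partners of MYC, 2 were higher and 1 lower at the unadjusted p, and 5 were higher and 6 lower without overlap. These counts were close to the shares over all genes (11.6%, 6.55%, 30.0% and 32.7%). Here 0 passed the adjusted p, and the median log2 fold change was 0.15. The treated tumours differed in sign, with median log2 ratios of -0.16 and 0.27. Ncoa3, a nuclear receptor co-activator, was at 63.0, 58.9, 126 and 90.7 CPM, and Trrap, the scaffold that brings histone acetyltransferases to MYC, was at 48.5, 49.8, 97.5 and 70.7 CPM. Both were higher in both treated tumours (log2 fold changes 0.83 and 0.78, edgeR adjusted p = 0.275 for each). Ruvbl1 and Ruvbl2, the paired ATPases that bind MYC, were lower, at 224, 217, 61.4 and 147 CPM and at 139, 142, 54.3 and 104 CPM.

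Of 16 tested genes for the turnover and phosphorylation of MYC, 1 was higher and 5 lower without overlap, against 30.0% and 32.7% of all genes. At the unadjusted p 1 was lower, against 6.55%, and 0 passed the adjusted p, with a median log2 fold change of -0.11 and median log2 ratios of -0.46 and 0.11 in the treated tumours. Skp2, a ubiquitin ligase subunit for MYC, was at 33.0, 37.3, 44.3 and 49.8 CPM, higher in both treated tumours. Ppp2r5a, a phosphatase subunit that acts on MYC, was at 132, 131, 67.4 and 90.6 CPM (log2 fold change -0.73, SE 0.24, edgeR adjusted p = 0.275). Pim2, a kinase that stabilises MYC, was at 22.2, 24.0, 17.4 and 53.7 CPM, so that the treated tumours lay on opposite sides of vehicle.

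The parallel arm of the network pairs MLX with MLXIP or MLXIPL and answers to glucose. Of its 3 genes and 3 further E-box factors, 1 was higher at the unadjusted p, against 11.6% of all genes, 0 passed the adjusted p, and 2 were higher and 0 lower without overlap, against 30.0% and 32.7%. Mlxip was at 63.5 and 61.1 CPM under vehicle and at 104 and 187 CPM under TAK-931 (log2 fold change 1.22, SE 0.35, edgeR adjusted p = 0.275). It was higher in TAK-931-2 than in TAK-931-1, the reverse of Mxd1 and Max. Tfe3, an E-box factor of lysosome genes, was at 41.3, 37.6, 71.7 and 41.4 CPM, the other gene without overlap. Its levels in Vehicle-1 (41.33 CPM) and TAK-931-2 (41.37 CPM) were nearly the same. Mlx (51.1, 60.7, 45.3 and 57.4 CPM), Usf1 (124, 133, 125 and 121 CPM) and Usf2 (43.4, 46.7, 78.1 and 36.7 CPM) overlapped between groups, as did Mlxipl, with 34, 6, 32 and 2 counts.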

How the data were processed

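RNA was sequenced from 4 allografts (2 Vehicle, 2 TAK-931). The labels call them independent samples, and p-values measure the spread between them. The authors deposited raw read counts per gene, which per the labels came from STAR 2.6.1c and featureCounts on mm10 (submitters' processing notes). The deposited tables also hold a column of another kind, the exon length of each gene in bases. Strand use and the handling of mates were not given in the sources used here. Of the counts from 1 to 20, only 17.9% to 23.9% were odd, so both mates may be counted and counting error is larger than the counts imply. A count of 0 allows 3 counts (between 0.153 and 0.182 CPM), for counting error only. Gene counts join all isoforms.

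Genes were kept with filterByExpr (minimum count of 10) in edgeR 4.0.16 (R 4.3.3), leaving 13669. TMM scaling and a robust quasi-likelihood test, two-sided, with Benjamini-Hochberg adjustment over all tested genes, were used, and scripts were checked on made-up counts. Values printed as CPM, and the ranks per length made from them, carry no prior count. The medians of lists per tumour and the search for genes nearest to Myc used log2 CPM with a prior count of 2. So did the correlations between libraries and the shares of genes as far from the vehicle mean as a member. The members and gene lists were chosen with earlier results of these data known. All members were named, as were the 2 highest and 2 lowest fitted genes of each list (all genes of lists under 8, with marker lists given by their names and sums), the 3 genes nearest to Myc, Pvt1, Trap1a, Jchain and Cdc7. Cip2a and Ly6g of the lists were not analysed here. A further gene that this rule names is not reported here. The fit was repeated with library size only, with median-of-ratios size factors, with no filter, with at least 10 counts in every library, with a replicate block, with halved counts, with DESeq2 1.42.0, limma-voom (limma 3.58.1) and with each library left out. Same-numbered libraries deviated together with a correlation of 0.0041, so numbers were not taken to pair them. Promoter windows came from RefSeq (GRCm38.p6).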

Additional observations from a re-analysis of the deposited data

How the results depend on the processing

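The count of members past the adjusted p was 0 in every alternative but DESeq2, which called 1 (Mxd1) among 10.3% of all genes, and the fits that left out a treated library. Leaving out each library in turn gave counts between 0 and 7 members: 3 without TAK-931-1 (Mxd1, Mxi1 and Mnt, in a fit that called 28.7% of all genes) and 7 without TAK-931-2 (all tested members but Mycl and Mxd3, with 58.1% of all genes called). In these fits the lone library was assumed to vary like the other group. At the unadjusted p the count was 1 with library size only (17.2% of all genes passed), 1 with DESeq2 (23.5%) and 1 with the replicate block (16.2%), and it lay between 1 and 8 when each library was left out (between 6.86% and 63.1%, the latter where 8 members passed). With the block, 0 members and 144 of all genes (1.05%) passed the adjusted p. The log2 fold change of Mga lay between -0.34 and 0.044 when libraries were left out, and turned positive without TAK-931-1. The other 8 tested members kept their direction in all 12 alternatives. The median of the members lay between -0.34 (without TAK-931-2) and 0.044 (without TAK-931-1), and that of the MYC targets between -1.41 and -0.44. The number of MYC targets lower without overlap was 56 with either other scaling, and that of members whose groups did not overlap was 8 with size factors (31.9% of all genes were higher and 30.3% lower) and 7 with library size only (31.3% and 30.6%); these scalings of both counts were added after seeing the data. The log2 difference in the ratio of Myc to its antagonists lay between -1.84 and -0.14. Depth limits Mycn and Mycl, which had between 0 and 56 counts. The cause of these differences was not tested.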
